A study of Mus musculus with 3 samples.

Results

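The interferon response genes described here were 48 genes taken from a fixed list of names, out of 32628 annotated mouse genes. The list was drawn up with earlier results of these data known. It comprised the 4 receptor chains for interferons, 7 transcription factors of the response, and genes that interferon is known to induce or that sense foreign nucleic acid. All 48, called the members, were found in the annotation, and each was read as chromatin accessibility in single stem cells.

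The cells were long-term haematopoietic stem cells (LT-HSCs), the cells at the top of blood formation, from the bone marrow of 24-month-old wild-type female C57BL/6J mice. Bone marrow was enriched for c-Kit, stained and sorted by flow cytometry, and 1 pool of cells was profiled by DOGMA-seq, which reads accessible chromatin, RNA and oligonucleotide-tagged antibodies from the same cell. The 3 libraries of that pool had no replicate and no second age, treatment or genotype, and the RNA library was not analysed here. All comparisons were therefore between cells of the same pool, no test between groups was possible, and every interval given is an exact 95% interval that covers counting error only.

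Interferons are secreted proteins made on infection. Type I interferons bind the receptor pair IFNAR1 and IFNAR2, and interferon gamma binds IFNGR1 and IFNGR2. Receptor-bound kinases then phosphorylate STAT proteins. Complexes that hold STAT2 and IRF9 bind a sequence called the interferon-stimulated response element (ISRE), and the gamma-activated site (GAS) is the sequence linked to interferon gamma. Stem cells are known to keep part of this programme on without infection, and interferon is known to push quiescent HSCs into cycle. CD274 (PD-L1), an inhibitory ligand for T cells and one of the antibody targets, is itself known as an interferon-induced protein.

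The antibody table held 3724 barcodes, of which 3629 had at least 10 antibody tags summed over the 12 antibodies and were kept. The kept cells held 38554133 nuclear fragments of the 43705382 fragments listed, with a median of 10300 per cell and a range from 3859 to 45151. Of these fragments, 37.6% lay in promoters. CD274 took 67.5% of the 114345 tags, and the median cell held 29 tags. Of 12 LT-HSC marker genes, 8 had a promoter fragment in at least 5% of cells. No T cell (of 5), neutrophil (of 5) or NK (of 4) marker reached that share, and the medians of those 3 lists were 5.79, 6.34 and 11.7 promoter fragments per 1000 cells against 114 for the LT-HSC list. Of the other lists, 1 of 6 monocyte and macrophage, 2 of 5 B cell, 3 of 5 erythroid, 4 of 5 megakaryocyte and 4 of 5 plasmacytoid dendritic cell markers reached it, the last list including Bst2, which is also an interferon response gene. The median was 105 for protein-coding genes, of which 58.9% reached the share, and 39.7 for all genes (47.1%). The megakaryocyte and plasmacytoid dendritic cell lists had medians of 142 and 163, above the LT-HSC list. Medians of the B cell, monocyte and macrophage, and erythroid lists were 13.2, 17.2 and 76.9, below it. By themselves these markers do not identify the cells as LT-HSCs. Doublets were not removed, and the part of other cell types in the values was not tested.

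The sequences around the start sites were searched for the letters of the ISRE and the GAS. RefSeq promoters were matched by symbol for 38 of the 48 genes on GRCm38.p6, the build also called mm10, and each covered 250 bases before the start and 50 after it. The ISRE core was taken as GAAA repeated after a gap of any 2 bases, and was searched on both strands. It was found in 16 of the 38 genes, against 3.99% of 27025 RefSeq genes. A longer core, with CT after these letters, was found in 8 of the 38 and in 0.303% of genes. The GAS core, TTCNNNGAA, was found in 13 of the 38 and in 9.55% of genes. A match shows only that these letters stand in the window. Only exact matches were counted, so a gene without a core may hold a close variant.

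The 160 bases before the start of 9 genes are printed 5′ to 3′ on the strand of the gene. Isg15 (chr4:156200819-156200978, minus strand), Ifit1 (chr19:34640729-34640888, plus), Ifit3 (chr19:34583369-34583528, plus), Rsad2 (chr12:26456453-26456612, minus), Bst2 (chr8:71537473-71537632, minus) and Gbp3 (chr3:142559884-142560043, plus) are shown for the ISRE core, in capitals on either strand. Irf1 (chr11:53769854-53770013, plus) is shown with its GAS core in capitals. Oasl1 (chr5:114923080-114923239, plus) and Ifnar1 (chr16:91485055-91485214, plus) held no ISRE core, and are shown because they had the largest spread between cells and the highest promoter level among the 48 genes.
Isg15: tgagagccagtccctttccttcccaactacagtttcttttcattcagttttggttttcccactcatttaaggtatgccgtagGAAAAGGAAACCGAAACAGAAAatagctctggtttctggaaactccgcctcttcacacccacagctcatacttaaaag
Ifit1: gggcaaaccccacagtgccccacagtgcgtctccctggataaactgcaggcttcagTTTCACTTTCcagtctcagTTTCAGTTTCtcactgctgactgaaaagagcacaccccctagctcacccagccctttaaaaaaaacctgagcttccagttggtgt
Ifit3: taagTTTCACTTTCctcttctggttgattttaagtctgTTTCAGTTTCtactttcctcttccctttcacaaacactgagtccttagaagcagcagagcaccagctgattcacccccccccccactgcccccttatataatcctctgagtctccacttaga
Rsad2: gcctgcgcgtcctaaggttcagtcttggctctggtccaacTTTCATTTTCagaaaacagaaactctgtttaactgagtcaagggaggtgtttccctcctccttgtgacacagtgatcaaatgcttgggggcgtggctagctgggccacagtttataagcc
Bst2: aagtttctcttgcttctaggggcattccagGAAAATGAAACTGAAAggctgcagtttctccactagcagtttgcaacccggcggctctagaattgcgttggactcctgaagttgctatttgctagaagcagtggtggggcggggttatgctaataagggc
Gbp3: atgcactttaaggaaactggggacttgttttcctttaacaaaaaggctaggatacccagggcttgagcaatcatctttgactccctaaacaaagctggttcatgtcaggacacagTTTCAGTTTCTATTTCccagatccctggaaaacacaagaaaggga
Irf1: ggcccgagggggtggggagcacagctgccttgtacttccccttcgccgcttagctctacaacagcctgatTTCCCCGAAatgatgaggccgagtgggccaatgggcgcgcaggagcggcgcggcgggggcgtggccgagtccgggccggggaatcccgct
Oasl1: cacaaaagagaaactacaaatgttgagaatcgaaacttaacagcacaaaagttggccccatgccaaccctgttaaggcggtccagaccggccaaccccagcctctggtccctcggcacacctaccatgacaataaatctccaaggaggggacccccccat
Ifnar1: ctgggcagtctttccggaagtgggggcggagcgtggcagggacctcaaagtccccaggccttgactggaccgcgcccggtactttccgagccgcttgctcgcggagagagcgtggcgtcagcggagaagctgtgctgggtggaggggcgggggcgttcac

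The core stood 66 to 78 bases before the start of Isg15 in 3 overlapping copies, and 104 and 85 bases before that of Ifit1. In Ifit3 it stood 156 and 122 bases before the start. CpG dinucleotides were few in these stretches, with 3 in Isg15, 1 in Ifit1 and none in Ifit3, against 15 in Ifnar1 and 16 in Irf1. Oasl1, which held no core, had 4, as did Bst2, which held 2 overlapping copies. The 16 genes with a core had a median of 5.5 CpGs in their richest 300-base promoter, and the 22 without one had 10.

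Most interferon response genes had an accessible promoter in these old HSCs. A promoter here is 1 kb on each side of the 5′ end of the annotated gene, and its level is the number of fragments overlapping it per 1000 cells. At least 1 fragment was found in 5% or more of cells for 44 of the 48 genes, against 47.1% of all 32628 genes and 58.9% of protein-coding genes. With every cell thinned to 6000 fragments, which left out 242 shallower cells, 40 of the 48 reached that share, and the shares of all 48 were lower (21.1% in place of 33.0% for Irf1, 1.77% in place of 3.44% for Ifit3). The 47.1% and 58.9% belong to cells before thinning, so the 40 has no share of all genes beside it. The median level was 176, and the median percentile among all genes was 69.0. All genes had a median of 39.7, 39 proteasome genes, a set that nearly every cell uses, had 340, and 1190 olfactory receptor genes, which blood cells do not use, had 0.276. The 67 other genes of the pathway had a median of 160, with 56 above the 5% share. None of the 19 interferon genes themselves reached it, and their median was 3.58.

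**Figure D1:**
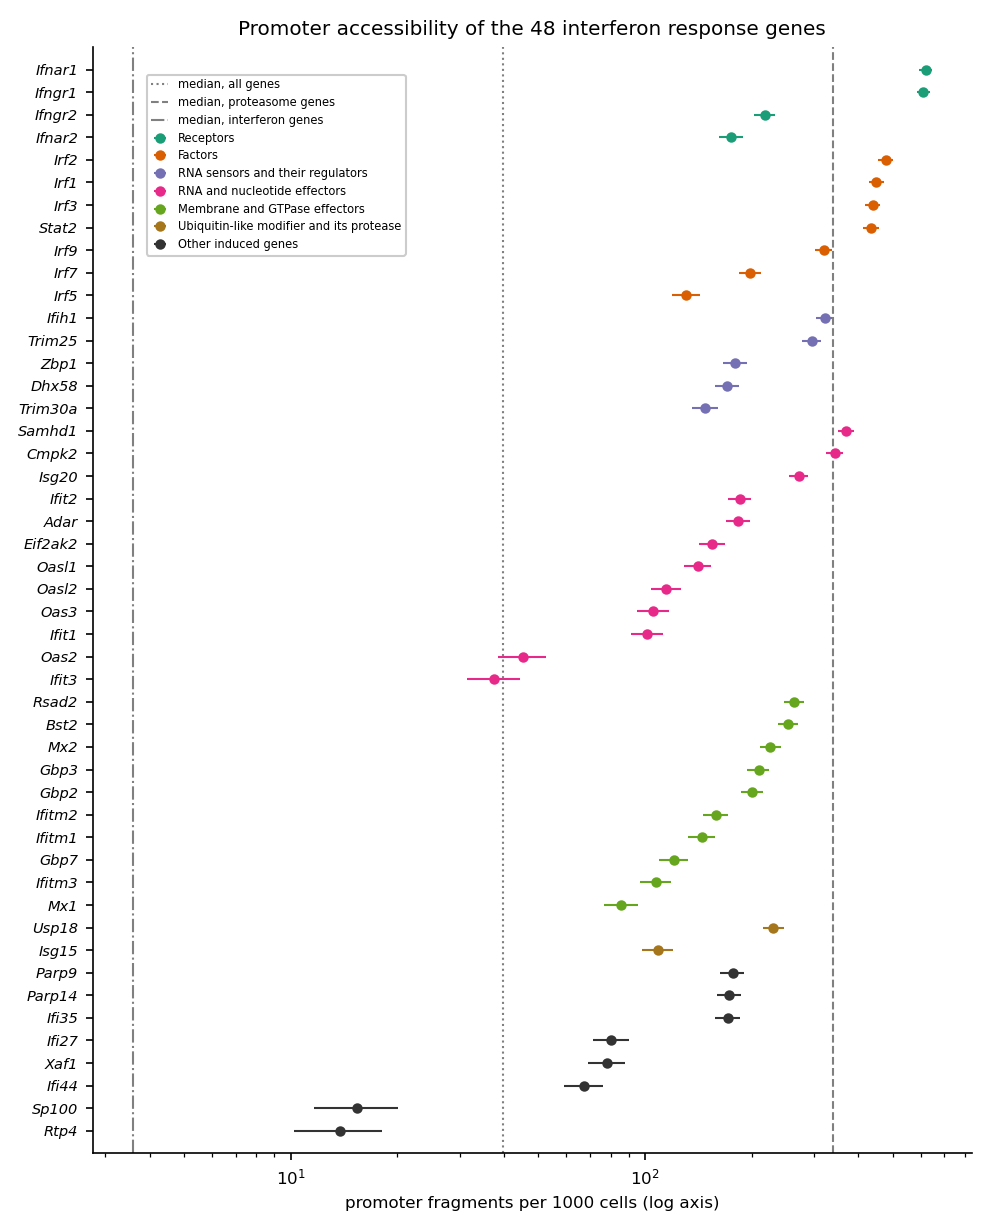
Promoter fragments per 1000 cells (log axis) for each of the 48 genes, coloured by role, with exact 95% Poisson intervals as bars and the medians of all genes, proteasome genes and interferon genes as vertical lines. Ifnar1 and Ifngr1 stand furthest to the right, followed by Irf2, Irf1, Irf3 and Stat2, and Rtp4 (13.8) and Sp100 (15.4) stand apart to the left.

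Ifnar1 and Ifngr1 had the most accessible promoters of the 48, and their partner chains did not. Ifnar1 (chr16:91485238-91507441), the chain that starts type I signalling with TYK2, had 2248 promoter fragments, and 43.3% of cells held at least 1. Ifngr1 (chr10:19591949-19610229), the ligand-binding chain for interferon gamma, had 2212 fragments in 43.9% of cells. The partners had 636 fragments in 14.5% of cells for Ifnar2 and 789 fragments in 17.7% for Ifngr2. Per 1000 cells, Ifnar1 had 619 (594 to 646) and Ifngr1 610 (584 to 635), and these did not differ beyond counting error, whereas Ifnar2 (175) and Ifngr2 (217) lay far below and nearer to the member median of 176. Ifnar1, Ifnar2 and Ifngr2 lie in one cluster on chromosome 16.

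The 7 transcription factors had a median of 434 promoter fragments per 1000 cells, against 413 for the 4 receptors. Irf2, a repressor that competes for ISRE sites and guards HSC quiescence in mice, had 1734 fragments, Irf1, the activator with the same target letters, had 1629, and Irf3, the factor activated by nucleic acid sensors, had 1595. Stat2 had 1576 and Irf9, its DNA-binding partner, had 1158. Irf7, the amplifier of interferon production, had 718 and Irf5, best known from myeloid cells and B cells, had 474. These corresponded to between 11.1% of cells for Irf5 and 36.0% for Irf2, and Irf1, Irf3 and Stat2 had overlapping counting intervals. Irf2 had the most fragments over the whole gene, 6332, of which 27.4% were in its promoter, and Irf3 had 89.4% of its 1785 fragments there.

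Of the 5 genes of sensors of foreign RNA and DNA and their regulators, Ifih1 and Trim25 lay above the median of the 48 and the others near it. Ifih1, which encodes the RNA sensor MDA5, had 1169 promoter fragments (322 per 1000 cells), and Trim25, a ubiquitin ligase of the RIG-I pathway, had 1072 (295 per 1000). Zbp1, a sensor of Z-form nucleic acid, had 653, Dhx58 (LGP2), a regulator of the RNA sensors, had 618 and Trim30a had 536.

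The effectors acting on RNA and nucleotides covered a wide range. Samhd1, which breaks down deoxynucleotides, had 1340 fragments and Cmpk2, a mitochondrial nucleotide kinase, had 1244. The nuclease gene Isg20 had 985, Ifit2 672, Adar, an RNA editor, 664, and Eif2ak2 (PKR), the kinase that stops translation, 561. The oligoadenylate synthetase family gave 512 for Oasl1, 416 for Oasl2, 383 for Oas3 and 164 for Oas2. Ifit1, whose protein binds viral RNA ends, gave 368 and Ifit3 gave 136. Oas2 and Ifit3 were open in 4.05% and 3.44% of cells, and their neighbours on the same chromosomes, Oas3 and Ifit2, in 9.34% and 15.9%.

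The membrane proteins and GTPases had a median of 180 per 1000 cells. Rsad2 (viperin) had 955 promoter fragments, Bst2 (tetherin) 921 and Mx2 819, while Mx1 had 311. The guanylate-binding protein genes Gbp3, Gbp2 and Gbp7 had 759, 728 and 438, and the membrane genes Ifitm2, Ifitm1 and Ifitm3 had 575, 524 and 390. The ubiquitin-like modifier Isg15 had 395 fragments and Usp18, the protease that removes it, had 835.

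Of the other induced genes, Parp9 had 641 fragments, Parp14 628, Ifi35 621, Ifi27 291, Xaf1 283 and Ifi44 244. Rtp4, a chaperone of receptor transport, and Sp100, a nuclear body protein, had 50 and 56 at the annotated 5′ end and were open there in 1.24% and 1.52% of cells. Those low values hold for the annotated 5′ end only. When every annotated transcript start was counted, Rtp4 rose to 623 fragments and Sp100 to 986. The densest 500-bp bin of Rtp4 held 335 fragments and was centred 89550 bp inside the annotated gene, and that of Sp100 held 674 and was centred 53750 bp inside it. The 2 RefSeq starts of Sp100 lay 0 and 26 bp from its annotated 5′ end, with at most 54 promoter fragments. Whether the inner bins are promoters of these genes was not tested. Inner starts also raised Adar from 664 to 1931, Parp9 from 641 to 1374, Irf5 from 474 to 1152 and Dhx58 from 618 to 1027. Parp9 shares its start region with Dtx3l, whose fragments cannot be told apart from its own. The same holds for Ifit1 (with Ifit1bl2), Oasl1 (Gm13822) and Rtp4 (Masp1 and Gm45338), which have another annotated start within 1 kb. Irf2, Oas3, Ifitm2, Sp100 and Eif2ak2 also have such a neighbouring start.

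For 35 of the 38 genes with a RefSeq start, the densest bin of the gene was centred within 500 bp of such a start. The exceptions were Irf5, whose densest bin lay 2550 bp downstream, Oas3, at 1911 bp, and Sp100. Trim30a had its densest bin, with 672 fragments, beside an inner RefSeq start about 19 kb from the outer one (19068 bp).

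**Figure D2:**
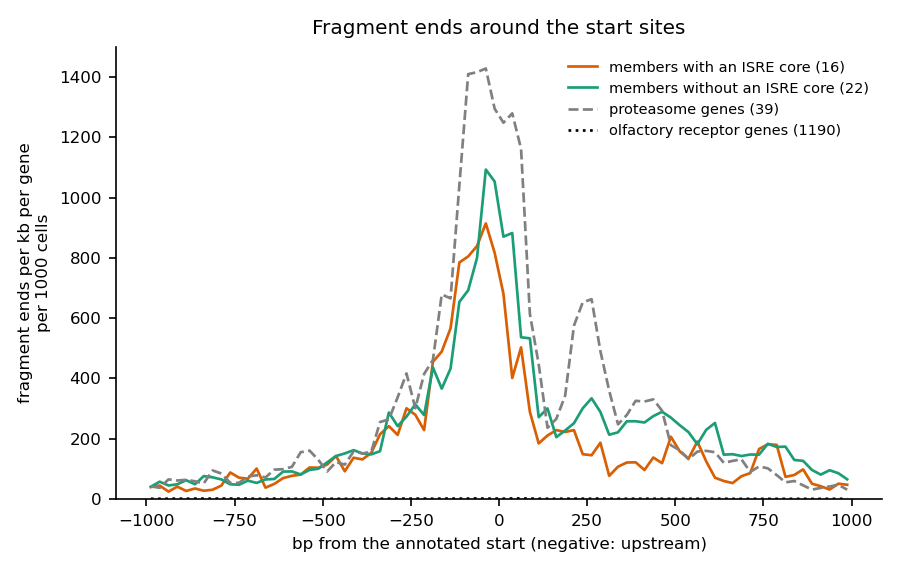
Fragment ends per kb per gene per 1000 cells in small bins from 1 kb upstream to 1 kb downstream of the annotated 5′ end, averaged over 16 genes with an ISRE core, 22 without, 39 proteasome genes and 1190 olfactory receptor genes. The 2 member curves peak at 914 and 1093 just upstream of the start, below the proteasome peak of 1428, and the olfactory curve stays near 0.

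Promoter levels overlapped between members with and without the ISRE letters. The 16 genes with a core had a median of 157 promoter fragments per 1000 cells, from 37.5 for Ifit3 to 478 for Irf2, and the 22 without had 192, from 15.4 for Sp100 to 619 for Ifnar1. In both groups the fragment ends were densest around the start, with the peak just upstream of it. The share of promoter fragments shorter than 150 bp, which is high where no nucleosome stands, ranged from 17.3% at Parp14 to 60.0% at Ifnar1, with Stat2 at 59.8% and Ifngr1 at 57.9%.

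The members were about as unevenly spread between cells as other genes of like count. Spread was measured over the gene and 2 kb upstream as a dispersion, the variance of the counts divided by what the fragment number of each cell predicts, where 1 means counting error alone. Its median was 1.158 for the 48 genes and 1.160 for all genes with at least 100 fragments. Each gene was ranked among the 200 genes nearest in count, and the median rank of the members was percentile 51.3. The top 5% held 3 members, against 5.52% of 22447 genes, so this count was near the background.

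Those 3 were Irf1, with a dispersion of 1.31 at percentile 99.5, Oasl1, with 1.36 at the same rank, and Irf5, with 1.29 at percentile 97.0. Isg15 followed at percentile 94.5. Stat2 and Ifngr1 stood at the other end, at percentiles 1.5 and 5.0 with dispersions of 1.06 and 1.10, and so came close to counting error. In the promoter alone, Oasl1 kept its place at percentile 97.5, Ifnar1 (96.0) and Ifngr2 (95.5) entered the top 5%, and Irf1 (69.0) and Irf5 (80.0) left it.

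**Figure D3:**
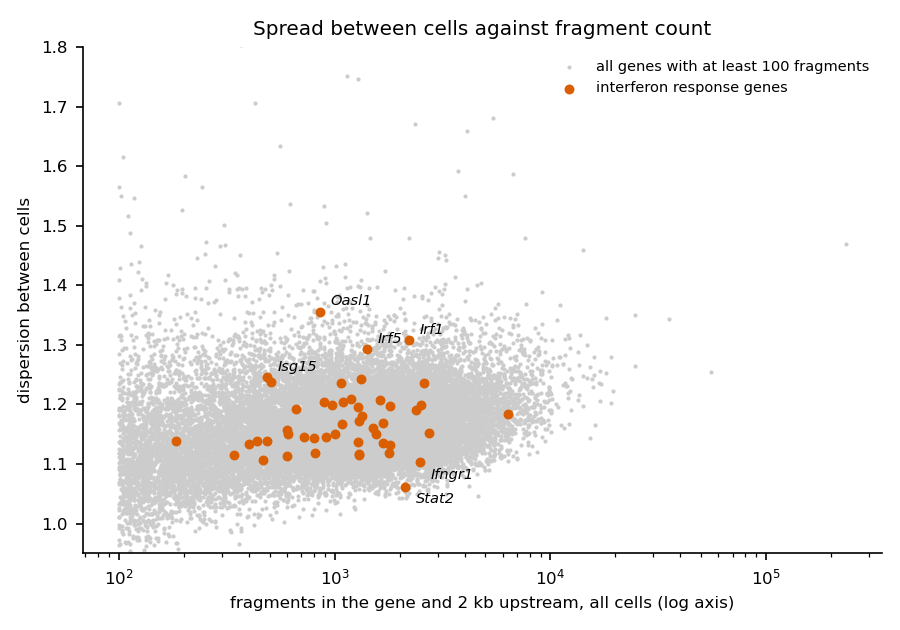
Dispersion between cells against the fragments in the gene and 2 kb upstream (log axis) for all genes with at least 100 fragments (grey) and the 48 interferon response genes (orange). The members lie through the middle of the cloud, with Oasl1 and Irf1 near its upper edge and Stat2 near its lower edge, and 12 genes fall outside the vertical range shown.

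Rank correlations between pairs of members lay near 0. The 1128 pairs of members had rank correlations over the 3629 cells, after removal of fragment number, from −0.048 to 0.061 with a median of 0.0058. The median over pairs of 1123 genes taken at regular steps through the gene list was 0.0037. No windows of members overlapped. Ifit1 and Ifit3, which lie 57.3 kb apart, had 0.048. Such values are too small in sparse counts to be a finding. With so few fragments per gene and cell, they show neither joint opening nor its absence. Summed over the 48 genes, a cell held a median of 17 fragments, with 9 and 27 at the 10th and 90th percentiles and 70 at most. Over the gene windows, the dispersion of the sum was 1.29. The 4 other gene lists (other interferon pathway, MHC, NF-kB and proteasome genes) had 1.24 to 1.33. With cells scaled by promoter fragments the members had 1.31, above the 1.19 to 1.25 of those lists. Over the promoters the members lay within those lists under either scaling. They had 1.24 against 1.23 to 1.31, and 1.20 against 1.15 to 1.22 with cells scaled by promoter fragments.

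The study asked whether surface markers tell HSC subtypes apart in old mice, and CD274 was one of its markers. The members were therefore compared between 937 cells with at least 27 CD274 tags and 877 cells with at most 12, which had median fragment numbers of 10311 and 10486. Per 10000 nuclear fragments, the 48 genes summed to 16.8 in CD274-high and 16.5 in CD274-low cells, a log2 ratio of 0.02 (−0.01 to 0.05). Over the promoters alone the sums were 9.68 and 9.18, and the log2 ratio was 0.08 (0.03 to 0.12). Promoters of all genes were themselves shifted up by a median of 0.02 on the same scale, since 37.8% of the fragments of CD274-high cells and 37.3% of those of CD274-low cells lay in promoters. In 3 equal groups of cells by fragment number the gene-window ratios were −0.01, 0.05 and 0.02, and over 4 steps of rising CD274 the sums were 16.6, 16.4, 17.2 and 16.8. Over the promoters the same steps gave 9.27, 9.42, 9.75 and 9.69, and the intervals of the first (9.09 to 9.46) and last step (9.50 to 9.89) did not overlap. This was not particular to the members. Those intervals did not overlap for NF-kB genes (6.68 to 6.99 and 7.34 to 7.68) or other interferon pathway genes (13.30 to 13.74 and 13.83 to 14.30) either. For MHC and proteasome genes they overlapped. The interval of the gene-window ratio left out 0 under some other choices, with 0.04 (0.0037 to 0.07) without the deepest 5% of cells, 0.03 (0.0011 to 0.06) on residual or centred tag counts and 0.04 (0.02 to 0.06) with all cells split at the median.

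Ratios of single genes ranged more widely than that of the sum, but their counting error was also larger. A gene was counted as higher or lower at a log2 ratio of 0.5 or more either way, with at least 100 fragments over both groups. Of 47 members with that many fragments, 1 was higher, Ifit1, against 0.834% of 20626 genes, and none was lower, against 1.07%. That call depended on the setting: on residual tag counts the 1 gene was Ifi44, on centred counts and with all cells split at the median it was Ifit3, and with no tag minimum there was none, with Ifit1 at 0.39, 0.46, 0.25 and 0.43 in turn. By the interval rather than the size, 8 of the 47 had an interval wholly above 0, against 7.09% of genes, and 3 had one wholly below 0, against 6.83%. In the promoters, 9 of 44 members (20.5%) had an interval above 0, against 6.97% of 15434 genes, and 2 had one below, against 3.52%. Past 0.5 there were 3 promoters, Ifit1, Mx1 and Xaf1, against 1.62%, and none was lower, against 0.778%.

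Ifit1 had 154 fragments in CD274-high and 96 in CD274-low cells, a log2 ratio of 0.53 (0.16 to 0.92). Its neighbour Ifit3 had 66 against 28, a ratio of 1.08 (0.44 to 1.79), but its fragments in all fell below the minimum. The third member of the cluster, Ifit2, had 353 against 337 and a ratio of −0.08 (−0.30 to 0.14). Over the gene window the intervals of Ifit1 and Ifit3 did not reach that of Ifit2. In the promoter alone Ifit1 gave 0.60 (0.17 to 1.06) and Ifit3 1.21 (0.47 to 2.06), and Ifit2, at −0.02 (−0.32 to 0.28), had an interval that overlapped with that of Ifit1.

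Besides Ifit1, 7 genes over the minimum had intervals above 0: 4 membrane proteins and GTPases, Oasl1 and, among the other induced genes, Ifi44 and Parp14. Ifi44 had 150 fragments against 96, a ratio of 0.50 (0.12 to 0.88), although its promoter alone gave 0.15 (−0.37 to 0.69). Mx1 had 185 against 126 and a ratio of 0.41 (0.08 to 0.75). Parp14, an ADP-ribosyltransferase, had 389 against 273 and 0.37 (0.14 to 0.60). Ifitm1 had 182 against 130 and 0.34 (0.0085 to 0.68), whereas Ifitm2 and Ifitm3 gave −0.13 and −0.12 with intervals that included 0. Oasl1 gave 0.27 (0.0012 to 0.54), but its promoter alone 0.33 (−0.01 to 0.68), Rsad2 had 390 fragments against 294 and 0.26 (0.04 to 0.49), and Mx2, which is annotated as a polymorphic pseudogene, 316 against 241 and 0.25 (0.0002 to 0.49). The lower bounds of Ifitm1, Oasl1 and Mx2 lay almost at 0.

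In the promoter alone Mx1 gave 0.54 (0.06 to 1.04). Xaf1, with 95 fragments against 57, gave 0.59 (0.10 to 1.09) there and 0.23 (−0.17 to 0.65) over the gene window, and Gbp3 gave 0.30 (0.0063 to 0.61) and 0.24 (−0.03 to 0.52). Of the receptors, Ifngr2 had 231 promoter fragments against 170, a ratio of 0.30 (0.0061 to 0.59), and 0.11 (−0.11 to 0.34) over the gene window. Ifnar1 gave 0.10, Ifngr1 0.04 and Ifnar2 −0.03 over the gene window, and 0.15, 0.06 and −0.01 in the promoter, all with intervals that included 0.

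The 3 genes with intervals below 0 were a factor, a kinase and a sensor. Eif2ak2 had 195 fragments against 227, a ratio of −0.36 (−0.65 to −0.08), Irf3 had 443 against 483 and −0.27 (−0.46 to −0.08), and Ifih1 had 579 against 589 and −0.17 (−0.34 to −0.0010). Only Irf3 of these also had an interval below 0 in the promoter, at −0.23 (−0.43 to −0.03), where it was joined by Irf5, at −0.37 (−0.74 to −0.0057). The 7 factors together gave −0.07 (−0.13 to −0.0061) over the gene window, with an upper bound almost at 0. There Irf9, at 0.02, was the only factor above 0, and Irf1, Irf2, Irf5, Irf7 and Stat2 lay between −0.11 and −0.02. Over their promoters the sum gave −0.05 (−0.13 to 0.04), an interval that included 0, and Irf1 (0.07), Irf7 (0.09) and Irf9 (0.04) were above 0.

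**Figure D4:**
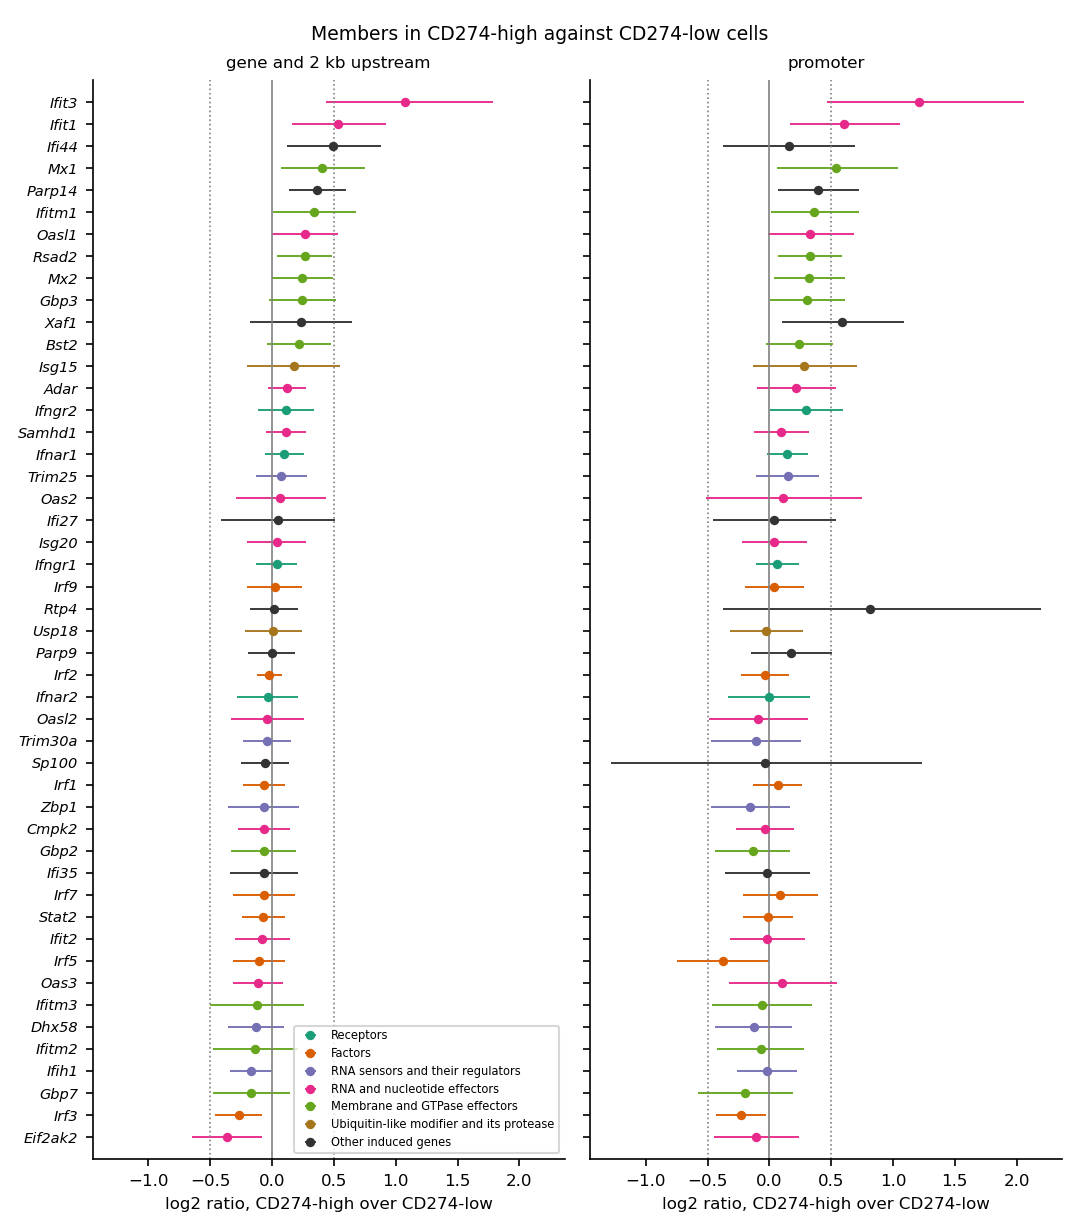
Log2 ratio of fragments in CD274-high over CD274-low cells for each of the 48 genes, over the gene and 2 kb upstream (left) and the promoter (right), with exact 95% conditional binomial intervals and dotted lines at 0.5 either way. Ifit3 has the highest ratio in both panels, 1 of the 7 factors and 1 of the 5 sensors lie above 0 in the left panel, and Sp100 and Rtp4 have wide intervals in the promoter panel because few fragments fell there.

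By role, the 10 membrane proteins and GTPases summed to 2.22 per 10000 in CD274-high and 2.01 in CD274-low cells, a log2 ratio of 0.15 (0.06 to 0.23). Receptors gave 0.06 (−0.03 to 0.15), RNA and nucleotide effectors 0.05 (−0.02 to 0.11), other induced genes 0.08 (−0.0067 to 0.17) and sensors −0.07 (−0.17 to 0.02). Over the promoters the intervals of 4 roles left out 0, with 0.18 (0.08 to 0.28) for membrane proteins and GTPases, 0.12 (0.02 to 0.23) for receptors, 0.10 (0.01 to 0.20) for RNA and nucleotide effectors and 0.22 (0.07 to 0.38) for other induced genes. The lower bounds of receptors and of RNA and nucleotide effectors were about the size of the 0.02 by which promoters of all genes were shifted. The intervals by role were not adjusted for the 7 roles or for both windows. They cover counting error only, while the summed members had a dispersion of 1.29, so bounds close to 0 show no difference. Outside the 48 and over the gene window, the 24 NF-kB genes gave 0.11 (0.08 to 0.15), the 67 other interferon pathway genes 0.03 (0.0027 to 0.05), MHC genes 0.03 (−0.0061 to 0.07) and proteasome genes −0.03 (−0.06 to 0.0017). Over the promoters, NF-kB genes rose from 6.83 to 7.51 per 10000 from the first to the last step of CD274. Other interferon pathway genes rose from 13.5 to 14.1, MHC genes went from 6.91 to 7.03 and proteasome genes from 11.7 to 11.6. In the promoters of 55 other pathway genes, 6 intervals lay above 0 and none below, against 6.97% and 3.52% of all genes. These 6 were Gbp4, Gbp8, Gbp9, Ptpn2, Socs3 and Tmem173. The Gbp genes among them share a start, so the 6 are not separate measurements and show no excess. Of 62 other pathway genes with enough fragments, 7 had an interval above 0, against 7.09% of all genes, and 2 below, against 6.83%. They included Tmem173 (STING), at 0.54 (0.22 to 0.87), the only one past 0.5, and Gbp4, Gbp8 and Gbp9, which are annotated with a start in common (494 promoter fragments each) and so are not separate measurements. The Cd274 gene itself had 362 fragments against 296, a ratio of 0.15 (−0.08 to 0.37).

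Members with and without the ISRE letters gave ratios by CD274 within each other's intervals. In the promoter window, the 16 members with a core had a log2 ratio of 0.07 (−0.0020 to 0.15) and the 22 without had 0.07 (0.0089 to 0.12). With cells scaled by promoter fragments these were 0.05 (−0.02 to 0.13) and 0.04 (−0.01 to 0.10). Over the gene window they were −0.01 (−0.06 to 0.04) and 0.03 (−0.02 to 0.07). Among members with enough promoter fragments, 6 of 15 with a core (median −0.02) and 14 of 21 without (median 0.07) had a ratio above 0. The share over all genes was 56.5%. Of the 15 members with a core and enough fragments, 3 had an interval above 0, Ifit1, Rsad2 and Gbp3, and none below, against 7.27% above and 3.90% below among 385 other genes with a core. Of 21 without a core, 3 also had one above 0, Ifitm1, Ifngr2 and Xaf1, and Irf3 and Irf5 had one below, against 6.77% above and 3.29% below among 10729 other genes without a core. By the other 11 antibodies the same promoter sums had intervals that included 0, except that members with a core gave −0.09 (−0.16 to −0.03) by CD357, where those without gave −0.0035 (−0.05 to 0.05) and the intervals overlapped. The 10 members without a RefSeq promoter were in neither group. They included Mx1, Mx2 and Parp14, whose promoter intervals by CD274 lay above 0. This grouping by ISRE core was chosen after the CD274 values were known.

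For the 11 other antibodies the summed members hardly varied. The log2 ratio between high and low cells lay from −0.09 to 0.01, and 10 of the 11 intervals included 0. The exception was CD206, a macrophage mannose receptor, with 15.7 per 10000 in the 82 cells with a tag and 16.8 in the other 3547, a ratio of −0.09 (−0.17 to −0.01). Over the promoters it was −0.06 (−0.16 to 0.04), among cells with at least 50 tags the gene-window ratio was 0.15, and the intervals were not adjusted for the 11 antibodies compared. For CD61, the integrin beta 3 chain known from platelets, the ratio was −0.02 (−0.05 to 0.02), for CD357 −0.0072 (−0.04 to 0.02), for CD27 −0.00087 (−0.03 to 0.03) and for CD201 (EPCR), an HSC marker, 0.0097 (−0.01 to 0.03). The rank correlation of the summed members with CD274 over 3629 cells, given fragment number and the other tags, was 0.059, and with the other antibodies it lay between −0.030 and 0.021.

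**Figure D5:**
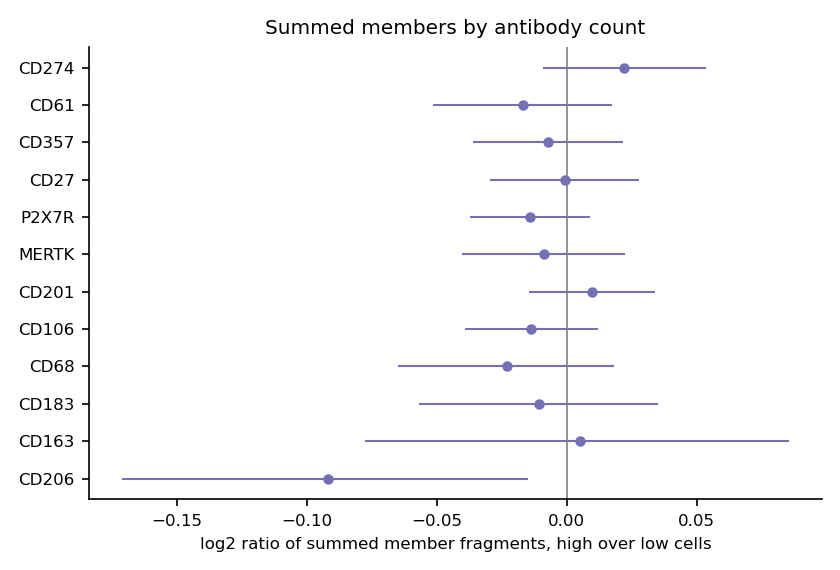
Log2 ratio of the summed fragments of the 48 genes, per nuclear fragment, between cells high and low for each of the 12 antibodies, with exact 95% conditional binomial intervals. All points lie between −0.09 and 0.02, and the CD206 interval alone leaves out 0.

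Single members also passed 0.5 by other antibodies. For CD61, 1 of 47 members was higher, against 0.735% of 19996 genes, and for MERTK 1 of 48, against 0.674% of 21672. Between cells with at least 6 CD61 tags and cells with at most 1, Ifitm2 had 159 fragments against 97, a log2 ratio of 0.50 (0.13 to 0.88). Between cells with at least 2 MERTK tags and cells with none, Oas2 had 103 against 266 from a larger group, a ratio of 0.52 (0.17 to 0.85). For antibodies with few tagged cells (71 to 281), 1 of 48 members was lower by CD68, Ifit1 at −0.52 (−1.16 to 0.01), against 2.86% of genes, and 1 by CD183, Gbp3 at −0.76 (−1.32 to −0.29), against 3.27%. By CD163, 4 were higher, against 8.95%, and 3 lower, against 10.2%, and the intervals left out 0 for Ifit1 at 1.23 (0.49 to 1.83), Parp14 at 0.57 (0.04 to 1.02) and Ifngr2 at −0.68 (−1.57 to −0.0030). By CD206, 3 were higher, against 8.33%, and 3 lower, against 8.62%, and only the interval of Bst2, at −0.76 (−1.73 to −0.03), left out 0. The other 5 antibodies had no member past 0.5. Counts past 0.5 this low over 11 antibodies are no result about the members. Intervals leaving out 0 were not particular to CD274. By CD61, Eif2ak2 gave −0.45 (−0.77 to −0.14), Oas3 −0.23 (−0.44 to −0.01) and Adar 0.18 (0.0088 to 0.35). By CD357, Isg15 gave −0.45 (−0.81 to −0.11), Gbp3 −0.41 (−0.66 to −0.16), Gbp2 −0.26 (−0.50 to −0.01) and Stat2 −0.19 (−0.35 to −0.03). Without a share of all genes beside them, these are no result about the members either.

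With 4 antibodies of the study combined, 342 cells above the median for CD61 and CD274 and not above it for CD357 and CD27 had 17.1 member fragments per 10000, and 61 cells of the reverse kind had 16.4, a log2 ratio of 0.06 (−0.04 to 0.16). With 61 cells, a difference of that size could not be detected. Of the 7 roles, the interval of the RNA and nucleotide effectors left out 0, at 0.25 (0.04 to 0.48), but not over their promoters, at 0.12 (−0.16 to 0.44). Among the other lists, MHC genes gave −0.11 (−0.22 to −0.0026), and the promoters of other interferon pathway genes gave 0.16 (0.05 to 0.27).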

How the data were processed

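DOGMA-seq of 1 pool of sorted LT-HSCs gave 3 libraries. Per the labels, the authors processed the reads with Cell Ranger ARC 2.0.2 on mm10, and deposited a list of ATAC fragments with their read counts and a table of antibody tag counts per cell, made with CITE-seq-Count. Neither was normalised by the authors. Cells with at least 10 summed tags were kept, and fragments were counted once each, whatever their read count, where they overlapped a window. Genes came from GENCODE M21. Promoters were 1000 bp on each side of the 5′ end, and gene windows reached 2000 bp upstream. Cells were scaled by their nuclear fragments.

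With 1 pool, no group test was made. Levels have exact Poisson intervals, shares of cells exact binomial (Clopper-Pearson) intervals, and ratios exact conditional binomial intervals at 95%, with 0.5 added to each count for the log2 ratio. PCR duplicates were already collapsed in the fragments, but the intervals cover counting error only. High and low cells were those nearest to 25% at each end, or cells with and without a tag. A total of 0 fragments in 3629 cells would allow a share of up to 0.0827%. Sequences and motif shares were from RefSeq on GRCm38.p6. Scripts ran in Python 3.11.15 with numpy, scipy and pandas and were tested on simulated counts.

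The members and lists were chosen with earlier results of these data known. Members were described singly by the rule that covers receptors, factors, the 5 highest and 5 lowest promoters, members in the top 5% of spread, and members past 0.5 or with an interval leaving out 0 by CD274. Alternatives changed the cells kept, windows, start sites, scaling, thinning, count minimums, group sizes and antibody scaling. The RNA library was not analysed here.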

Additional observations from a re-analysis of the deposited data

Results flagged for a closer look

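The antibody table held tags that matched none of the 12 antibodies, which the comparisons did not use: 15768 in the kept cells, a mean of 4.35 per cell. They were looked at because they are data outside the main measurement. Between the 967 cells with the most of them and the 849 with the fewest, the summed interferon response genes had a log2 ratio of −0.02 (−0.05 to 0.01). There were no groups of 4 to 10 samples in which to look for outlying samples.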

How the results depend on the processing

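Under the alternatives run, the count of accessible promoters lay between 36 (at a share of 10% of cells) and 46, with 40 after thinning to 6000 fragments, the count in the top 5% of spread was 2 or 3, and the median correlation between pairs lay between 0.0026 and 0.011. The 47.1% of all genes with an accessible promoter holds for the main setting only. The counts of 36, 40 and 46 thus have no such share beside them. Among protein-coding genes alone the median percentile of promoter level was 59.7. By CD274, the summed log2 ratio was −0.026 with at least 50 tags (363 cells, few per group), 0.077 in the promoter window and 0.076 with 10% of cells at each end. Members past 0.5 numbered 0 of 9 with at least 50 tags (2.73% of all genes), 0 of 47 with no tag minimum (0.915%), 2 of 47 without the deepest 5% of cells (0.908%), 3 of 44 in the promoter window (1.62%), 5 of 43 with 10% ends (Isg20, Ifit1, Ifi44, Rsad2 and Parp14; 1.63%) and 2 of 48 with at least 20 fragments (2.72%). Members below −0.5 numbered 1 of 9 with at least 50 tags (Irf1; 2.25%) and 1 of 43 with 10% ends (Eif2ak2; 1.72%). Ifit1 turned to −0.048 with at least 50 tags, while Ifit3 stayed between 0.79 and 1.65 under every alternative run.

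With at least 50 tags the summed ratios of the other antibodies were −0.056 for CD61, 0.040 for CD357, −0.13 for CD27, −0.10 for P2X7R, −0.11 for MERTK, −0.073 for CD106, −0.082 for CD68, −0.093 for CD183, 0.23 for CD163 and 0.15 for CD206. CD61 was 0.020 in the promoter window and CD201 −0.015 on residual counts. The longer ISRE core left 8 genes. The grouping by ISRE core within the CD274 comparison and the combination of 4 antibodies were added after the data were seen, and with at least 50 tags the promoters of members with a core gave −0.099. The causes of these changes were not tested. Counting fragment ends in place of overlaps changed almost nothing, since a fragment without an end inside must span the whole window. For single members, 438 ratios by CD274 moved by less than their interval, 41 by more, and 1, that of Ifit1, changed sign from past 0.5. Smaller ratios that changed sign, such as those of Irf1 and Irf7 in the promoter window, are among the former counts. Thinning moved the share of cells of all 48. No paired analysis was possible because the series holds 1 pool of cells without replicates. Depth limits single genes: for Ifit3, 66 fragments in 937 CD274-high cells against 28 in 877 CD274-low cells gave an interval wider than 1 on the log2 scale.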
